A study of Mus musculus with 13 samples.

Results

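The 10 genes described here are Atf4, the gene of the central transcription factor of the integrated stress response, and 9 genes known as its partners, targets or feedback regulators: Atf3, Ddit3, Ppp1r15a, Asns, Psat1, Phgdh, Sesn2, Trib3 and Ddit4. They were taken by symbol from the deposited RNA table, in which all 10 were found, once each, among 11761 listed genes. The RNA is from epididymal white fat of Adipoq-NuTRAP mice on the C57BL/6J background, kept on a high-fat diet (HFD, 3 libraries) or on chow (3 libraries) for 10 weeks. In NuTRAP mice a GFP tag on ribosomes allows bound mRNA to be pulled down from tissue homogenate with an antibody (translating ribosome affinity purification, TRAP), and the Adipoq promoter directs the tag to adipocytes. All animals of both diets carry this transgene. Whether a library stands for 1 animal or a pool is not stated in the labels, and the p-values below therefore cover no more than the variation among these 6 libraries, part of which may be technical. The chromatin samples of the series, 5 for H3K27ac and 2 for PPARG, were not analysed here.

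In the integrated stress response, kinases that sense endoplasmic reticulum stress, amino acid shortage, double-stranded RNA or haem and mitochondrial stress phosphorylate the translation initiation factor eIF2. Most translation then slows, while ATF4 mRNA is translated more, because upstream reading frames in its leader hold it back under normal conditions. ATF4 binds composite C/EBP-ATF elements and switches on genes of amino acid synthesis and transport, further stress factors such as ATF3 and CHOP, and GADD34, which brings phosphatase to eIF2 and ends the response. ATF4 protein and eIF2 phosphorylation are not measured by these libraries, which hold ribosome-bound mRNA. A gene said below to rise or fall did so in this bound mRNA, where mRNA amount and ribosome loading cannot be told apart.

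The 10 genes did not move as one. Under HFD the stress transcription factor genes Atf3, Ddit3 and Atf4 rose, as did Ddit4, an inhibitor of the growth kinase mTORC1, whereas Asns, the asparagine synthetase gene, fell. The serine synthesis genes Phgdh and Psat1, the feedback genes Trib3 and Ppp1r15a and the mTORC1 inhibitor gene Sesn2 did not pass the test. With limma on log2(CPM + 1), where CPM is the read count scaled to the effective size of its library, and a Benjamini-Hochberg adjusted p under 0.05 over all genes tested, 5 of 10 members were called, against 35.1% of all 11643 genes tested. The 4 that rose stand beside 19.1% of all genes higher in HFD, and the 1 that fell beside 16.0% lower. The median log2 fold change of HFD over chow was 0.32 over the members and -0.00 over all genes tested. The libraries of the diets did not overlap for 5 of 10 members, the same 5 that were called, against 50.2% of all genes. All 10 members passed the filter of a mean of at least 1 CPM.

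**Figure D1:**
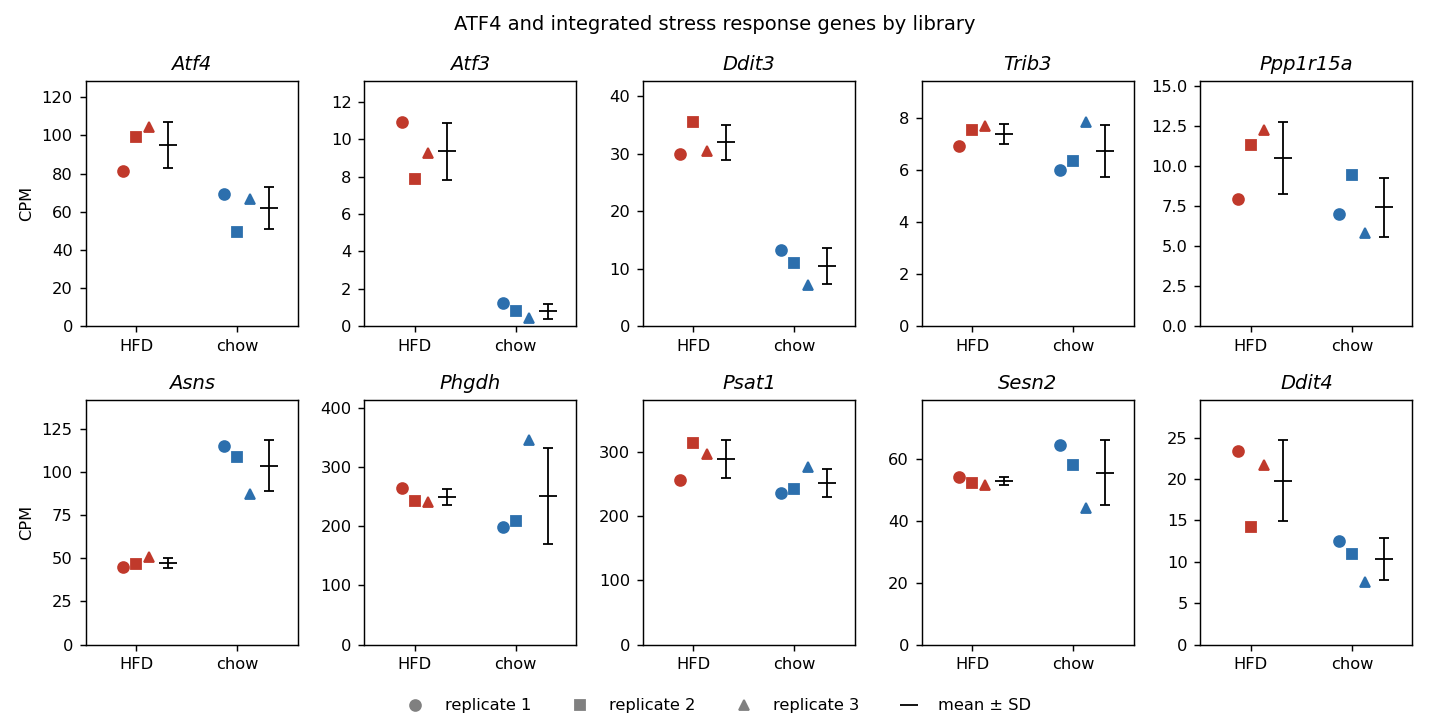
Level of each of the 10 genes in CPM (y axis, starting at 0) in the HFD libraries (red) and the chow libraries (blue), with the replicate shown by the symbol and the mean ± SD of 3 libraries in black. The HFD libraries stand wholly above chow for Atf4, Atf3, Ddit3 and Ddit4 and wholly below for Asns, and overlap with chow for the other 5 genes.

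The libraries had effective sizes of 31970000 to 39390000 reads for HFD and 7430000 to 32450000 reads for chow, as recovered from the steps between low values, with chow replicate 3 the shallowest. Per read this came to 0.0254 to 0.0313 CPM in HFD libraries and 0.0308 to 0.135 CPM in chow libraries. The CPM of all listed genes summed to 984422 to 997530 in HFD libraries and 1012160 to 1182120 in chow libraries. The effective sizes are thus not plain read totals, and those of the chow libraries are smaller than their read totals. The 10 members rested on about 3 to 11664 reads per library, the lowest being Atf3 in chow replicate 3. Adipocyte markers were abundant in every library, at a summed 16356 to 18550 CPM in HFD and 19182 to 30080 CPM in chow over 12 genes, of which 7 were lower and 1 was higher in HFD. The 1 that was higher is the leptin gene Lep, at 4871 to 6472 CPM in HFD and 1010 to 1468 CPM in chow. It therefore makes up more of the sum in HFD than in chow. The material was pulled down from tissue homogenate. Fewer cells of a type, less bound mRNA per cell and more untagged mRNA carried along cannot be told apart in it.

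Atf4 itself, on chromosome 15 at 80255184 to 80257545 (RefSeq, GRCm38.p6, also for the positions that follow), rose moderately. It stood at 81.6, 99.04 and 105 CPM in HFD replicates 1, 2 and 3, and at 69.6, 49.2 and 66.7 CPM in chow replicates 1, 2 and 3. Every HFD library was above every chow library, with chow replicate 2 the lowest. The means were 95.1 ± 12.1 CPM in HFD and 61.8 ± 11.03 CPM in chow (SD, n = 3 each), a log2 fold change of 0.62 (SE 0.17, limma adjusted p 0.0172). The call did not hold without HFD replicate 2 (adjusted p 0.0599), HFD replicate 3 (0.0741) or chow replicate 2 (0.0536).

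Atf3, whose product is a stress-induced member of the same bZIP family that mostly represses transcription, changed the most of the 10. The gene lies on chromosome 1 at 191170296 to 191183333. Its level was 10.9, 7.89 and 9.25 CPM in HFD replicates 1, 2 and 3, against 1.21, 0.779 and 0.412 CPM in the chow replicates. The chow values correspond to about 28, 25 and 3 reads, and the HFD values to about 368, 252 and 364 reads, so all chow libraries were near the lower end of the table and all HFD libraries clear of it. The mean was 9.36 ± 1.52 CPM in HFD and 0.802 ± 0.402 CPM in chow (SD, n = 3 each), a ratio of means of 11.7. On the log2(CPM + 1) scale, which understates changes of low genes, the difference was 2.54 (SE 0.26, limma adjusted p 0.000126), and on the deposited log2 CPM it was 3.67. Without chow replicate 3, the library with about 3 reads, it was 2.37 on the first scale (adjusted p 0.000558).

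Ddit3, which encodes CHOP, a C/EBP-family factor tied to prolonged endoplasmic reticulum stress and cell death, rose as well. It is on chromosome 10 at 127290793 to 127296291. It was measured at 29.9, 35.5 and 30.5 CPM in the HFD libraries and at 13.3, 10.9 and 7.16 CPM in the chow libraries. The HFD libraries lay close together and the lowest of them was above the highest chow library. Its log2 fold change came to 1.56 (SE 0.21, limma adjusted p 0.000627), with means of 31.9 ± 3.10 CPM in HFD and 10.5 ± 3.08 CPM in chow (SD, n = 3 each). The ends of Ddit3 overlap its neighbours Mbd6 by 77 bases and Mars, the methionyl-tRNA synthetase gene, by 71 bases, and the Nextera XT kit named in the labels does not mark strand. Neither neighbour passed the test, with Mars at 58.8 ± 3.46 CPM in HFD and 71.3 ± 9.78 CPM in chow and a log2 fold change of -0.27 (limma adjusted p 0.167). Mbd6 stood at 18.5 ± 7.91 CPM in HFD and 25.8 ± 6.30 CPM in chow (-0.51, limma adjusted p 0.193). Mbd6 was called lower without HFD replicate 1 (-0.81, adjusted p 0.0386), and Mars without chow replicate 3 (-0.38, adjusted p 0.0336).

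Trib3 encodes a pseudokinase that is induced by ATF4 and CHOP, restrains ATF4 in turn, and can bind the kinase AKT. On chromosome 2 at 152337425 to 152344060, it did not rise with the factors. Its levels were 6.92, 7.52 and 7.67 CPM in HFD and 5.98, 6.32 and 7.84 CPM in chow, with chow replicate 3 above all HFD libraries. The log2 fold change was 0.12, with a 95% interval of -0.30 to 0.55 (limma adjusted p 0.642). Of the Tribbles paralogues, Trib2 rose to 5.14 ± 2.41 CPM in HFD, against 1.46 ± 0.773 CPM in chow (log2 fold change 1.29, limma adjusted p 0.0197). That call did not hold without HFD replicate 1 (adjusted p 0.0703), HFD replicate 2 (0.0588), chow replicate 2 (0.0611) or chow replicate 3 (0.0536), nor under quantile normalization (0.70, 0.125).

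Asns makes asparagine from aspartate and glutamine and is a classical ATF4 target of amino acid shortage. It went the other way. On chromosome 6 at 7675165 to 7693209, it stood at 45.3, 46.5 and 50.9 CPM in the HFD replicates and at 115, 109 and 87.4 CPM in the chow replicates. All HFD libraries lay within a narrow range far below the lowest chow library, which was chow replicate 3. The mean was 47.6 ± 2.97 CPM in HFD and 104 ± 14.7 CPM in chow (SD, n = 3 each), a log2 fold change of -1.10 (SE 0.14, limma adjusted p 0.000407). Setting the median adipocyte marker gene equal between libraries made the fall smaller and ended its call (-0.47, adjusted p 0.106), while the median of all genes stood at 0.61 under that scaling.

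Phgdh and Psat1 encode the first and the second enzyme of serine synthesis from a glycolytic intermediate, and both are ATF4 targets in many cells. Phgdh, on chromosome 3 at 98313171 to 98339969, was measured at 265, 242 and 241 CPM in HFD and at 198, 209 and 345 CPM in chow. The HFD libraries sat between the chow libraries, among which replicate 3 was the highest. Its log2 fold change was 0.04, with a 95% interval of -0.41 to 0.48 (limma adjusted p 0.903). RefSeq lists a pseudogene of Phgdh (Phgdh-ps1), and reads shared with it could not be told apart here. Psat1, on chromosome 19 at 15905123 to 15925059, stood at 256, 313 and 296 CPM in HFD and at 236, 242 and 276 CPM in chow. Its ranges overlapped only through chow replicate 3, and the difference of 0.20 had a 95% interval of -0.10 to 0.49 (limma adjusted p 0.27). Quantile normalization brought Psat1 to 0.31 and an adjusted p of 0.0483. Under scaling to the median adipocyte marker gene, Psat1 (0.84), Phgdh (0.68), Trib3 (0.70) and Ppp1r15a (1.03) also passed, beside that median of 0.61 for all genes.

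Promoter sequence is shown for the members that hold a C/EBP-ATF element near their start, since they include both the member that rose most and the member that fell. The element was searched as TGATGNAA on both strands in RefSeq windows of 250 bases before to 50 after each gene's start (GRCm38.p6). It was found in 3 of 11 windows of the 10 members, those of Atf3, Asns and Trib3, and in 3.97% of 32851 windows of all genes. The capitals below mark the match, and the sequences read 5′ to 3′ on the gene's strand (all on the minus strand). They cover the 250 bases before the start for Atf3 (chr1:191183334-191183583) and Asns (chr6:7693210-7693459), and 30 bases around the match, which lies after the start, for Trib3 (chr2:152344028-152344057).
Atf3: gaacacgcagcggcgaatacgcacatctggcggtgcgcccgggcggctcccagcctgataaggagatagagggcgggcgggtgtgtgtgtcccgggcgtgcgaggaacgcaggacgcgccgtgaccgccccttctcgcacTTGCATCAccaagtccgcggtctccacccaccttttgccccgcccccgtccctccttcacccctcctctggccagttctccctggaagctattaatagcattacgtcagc
Asns: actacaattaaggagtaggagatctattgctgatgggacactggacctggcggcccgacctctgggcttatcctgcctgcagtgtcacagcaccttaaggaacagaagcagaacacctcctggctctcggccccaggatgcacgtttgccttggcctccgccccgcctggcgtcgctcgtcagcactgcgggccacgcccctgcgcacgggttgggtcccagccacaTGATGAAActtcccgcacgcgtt
Trib3: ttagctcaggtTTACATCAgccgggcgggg
The match lies 110 to 103 bases before the start in Atf3, on the opposite strand, and 23 to 16 bases before it in Asns, on the gene's strand. In Trib3 it is at bases 15 to 22 from the start, on the opposite strand. Atf3 was higher, Asns lower and Trib3 not called under HFD, so the members that share these letters did not share a direction. The palindromic CRE, TGACGTCA, was found in 1 member window, that of Ppp1r15a, and in 1.79% of all windows. A match of letters is a description and does not show binding.

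Ppp1r15a encodes GADD34, the stress-induced subunit that directs protein phosphatase to eIF2. On chromosome 7 at 45522917 to 45526268, it stood at 7.94, 11.3 and 12.2 CPM in HFD and at 6.96, 9.45 and 5.82 CPM in chow. The diets overlapped, since HFD replicate 1 lay below chow replicate 2, and the log2 fold change of 0.45 had a 95% interval of -0.07 to 0.98 (limma adjusted p 0.16). It was 0.19 under quantile normalization (adjusted p 0.563) and 1.03 under scaling to the median adipocyte marker gene (adjusted p 0.0122). Its gene span overlaps Tulp2 by 730 bases, which was not analysed here. Ppp1r15b, the constitutive counterpart of GADD34 known as CReP, fell. It was at 122, 105 and 145 CPM in the HFD libraries and at 256, 220 and 347 CPM in the chow libraries, without overlap (log2 fold change -1.12, SE 0.19, limma adjusted p 0.00175). The difference of log2 CPM between Ppp1r15a and Ppp1r15b within a library was -3.94 to -3.22 in HFD and -5.90 to -4.54 in chow.

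Sesn2 and Ddit4 both curb mTORC1, Sesn2 as a leucine-sensing sestrin and Ddit4, also known as REDD1, through the TSC complex. Ddit4, on chromosome 10 at 59949675 to 59951770, stood at 23.4, 14.2 and 21.7 CPM in the HFD replicates and at 12.5, 10.9 and 7.57 CPM in the chow replicates. HFD replicate 2 was only slightly above the highest chow library. The means were 19.8 ± 4.89 CPM in HFD and 10.3 ± 2.50 CPM in chow (SD, n = 3 each), with a log2 fold change of 0.87 (SE 0.24, limma adjusted p 0.0194). This call did not hold without HFD replicate 1 (adjusted p 0.0737), HFD replicate 3 (0.0758) or chow replicate 3 (0.0543). Sesn2, on chromosome 4 at 132492804 to 132510456, was at 54.2, 52.3 and 51.6 CPM in HFD and at 64.4, 58.1 and 44.0 CPM in chow. The HFD libraries were nearly equal and lay inside the chow range, with a log2 fold change of -0.06 and a 95% interval of -0.41 to 0.29 (limma adjusted p 0.807). Its paralogue Sesn1, a p53 target, was at 52.3 ± 0.363 CPM in HFD and 59.6 ± 4.74 CPM in chow and did not pass either (limma adjusted p 0.279).

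**Figure D2:**
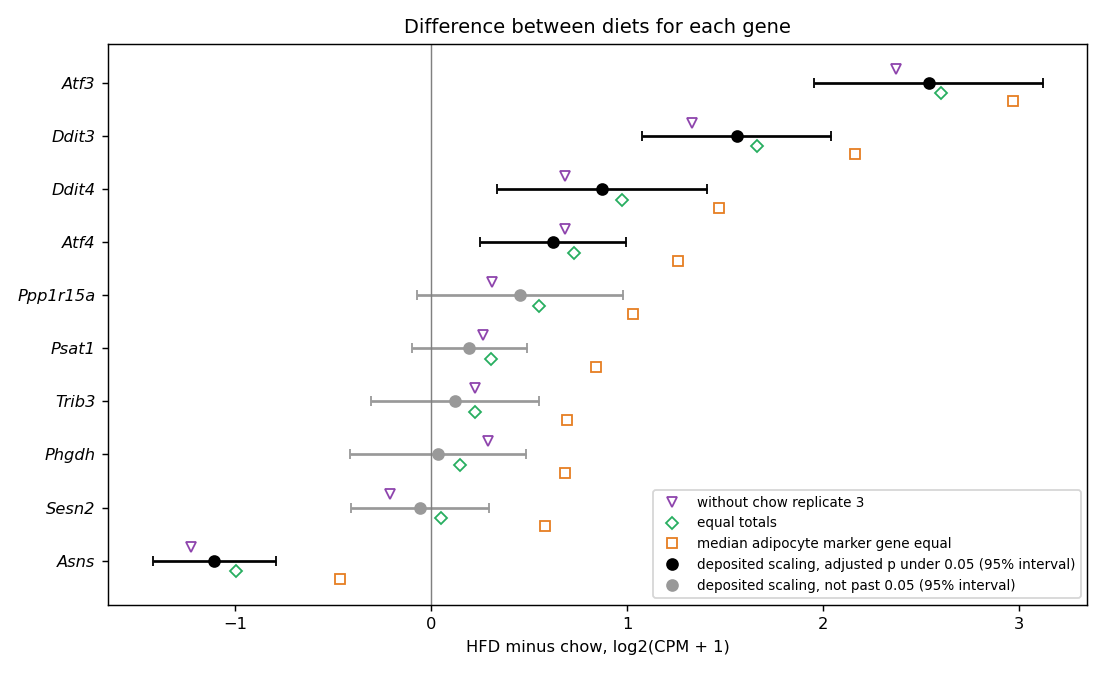
Difference between HFD and chow on the log2(CPM + 1) scale (x axis) for each gene, ordered by size, with the 95% interval of the limma fit; black points passed an adjusted p of 0.05 and grey points did not. Open symbols give the difference without chow replicate 3, with equal totals and with the median adipocyte marker gene set equal between libraries, which moves all 10 genes upward and leaves Asns at -0.47.

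Differences between 2 genes of the same library do not depend on how libraries are scaled to each other, and they are given as descriptions without a test. The pairs were picked by hand, and how often other gene pairs separate the diets was not computed. The log2 CPM of Ddit3 minus that of Asns was -0.60, -0.39 and -0.74 in HFD replicates 1, 2 and 3, and -3.12, -3.32 and -3.61 in chow replicates 1, 2 and 3. The gap between these genes was thus smaller in every HFD library, by 2.77 on average. Asns minus Atf4 was -1.09 to -0.85 in HFD and 0.39 to 1.15 in chow, and Ddit3 minus Atf4 was -1.78 to -1.45 in HFD and -3.22 to -2.17 in chow. Relative to Atf4 in the same library, Ddit3 was therefore higher and Asns lower in all HFD libraries. This follows from the changes of these genes given above and adds no support to them. Psat1 minus Phgdh, by contrast, overlapped between diets, at -0.05 to 0.37 in HFD and -0.32 to 0.25 in chow. These CPM values are not per length, so the size of a gap at 1 diet does not rank the genes.

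**Figure D3:**
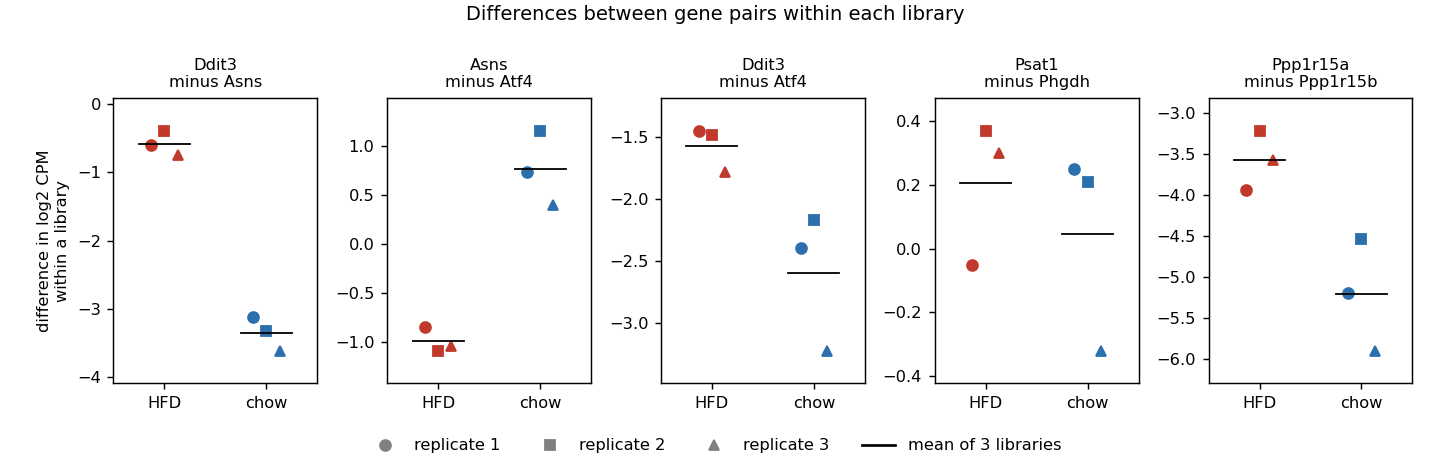
Difference in log2 CPM between the genes of a pair within each library (y axis, a separate scale in each panel), for HFD (red) and chow (blue), with the replicate shown by the symbol and the mean of 3 libraries as a line. The diets do not overlap for Ddit3 minus Asns, Asns minus Atf4, Ddit3 minus Atf4 and Ppp1r15a minus Ppp1r15b, and overlap for Psat1 minus Phgdh.

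Upstream of the members, most genes of the eIF2 kinases and of eIF2 control did not pass the test, as was the case for all genes tested. Of all genes tested, 19.1% were higher and 16.0% lower in HFD, and these shares stand beside the counts of every list that follows. Of 18 genes of the eIF2 kinases, eIF2, eIF2B and their regulators, 2 rose, 1 fell and 15 did not pass, with a median log2 fold change of -0.02 beside -0.00 for all genes. Those that rose were Eif2ak3, which encodes PERK, the kinase of endoplasmic reticulum stress, and Eif2s1, the subunit of eIF2 that is phosphorylated. Eif2ak3 was at 43.7 ± 3.48 CPM in HFD and 32.8 ± 2.08 CPM in chow (0.40, limma adjusted p 0.0402), and lost its call when any 1 of the 6 libraries was left out (adjusted p 0.0584 to 0.171). Eif2s1 was at 79.7 ± 17.9 CPM in HFD and 47.6 ± 11.5 CPM in chow (0.73, limma adjusted p 0.022), and lost its call without HFD replicate 2 (0.0837), HFD replicate 3 (0.0568) or chow replicate 3 (0.0684). Without HFD replicate 2, HFD replicate 3 or chow replicate 3, 0 genes of this list rose, against 1 without chow replicate 1 or chow replicate 2. The genes of the haem-regulated kinase (Eif2ak1, -0.05), of the RNA-sensing kinase PKR (Eif2ak2, 0.18) and of the amino acid sensor GCN2 (Eif2ak4, 0.25) did not pass, with limma adjusted p-values of 0.782, 0.599 and 0.269. The gene that fell was Ppp1r15b, described above.

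Among 7 further stress transcription factor genes, Jdp2, a relative of Atf3, rose and Cebpg, a dimer partner of ATF4, fell. Jdp2 stood at 12.3 ± 0.889 CPM in HFD and 6.17 ± 3.04 CPM in chow (0.99, limma adjusted p 0.0304), a call that was lost without HFD replicate 1 (0.0715), HFD replicate 2 (0.0910) or HFD replicate 3 (0.0697). Cebpg stood at 179 ± 11.9 CPM in HFD and 253 ± 46.8 CPM in chow (-0.48, limma adjusted p 0.0313), and lost its call without HFD replicate 1 (0.101), HFD replicate 2 (0.0679) or HFD replicate 3 (0.0739); under scaling to the median adipocyte marker gene it stood at 0.16. Atf5, another factor under eIF2 control, was at 114 ± 4.86 CPM in HFD and 99.6 ± 34.6 CPM in chow (0.25, limma adjusted p 0.397), and passed without chow replicate 3 (0.51, adjusted p 0.0309). With equal totals, with voom weights or without chow replicate 3, 2 genes of this list rose, and without HFD replicate 2 or HFD replicate 3, 0 did.

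Most listed genes of amino acid transport rose. Of 7 transporter genes, 6 rose, 0 fell and 1 did not pass, with a median of 0.63. The 1 that did not pass was Slc1a5, a glutamine carrier named because it had the most CPM of these genes and picked with its values known, at 1569 ± 162 CPM in HFD and 2074 ± 272 CPM in chow without overlap (-0.40, limma adjusted p 0.0849; 0.25 under scaling to the median adipocyte marker gene). The summed level of the 7 genes, most of it Slc1a5, was 1646 to 1985 CPM in HFD and 2007 to 2511 CPM in chow. Slc38a1, a sodium-coupled glutamine carrier, reached 10.1 ± 2.35 CPM in HFD, against 2.24 ± 1.02 CPM in chow (1.81, limma adjusted p 0.00171). Slc38a2, the amino acid-responsive carrier of the same family, stood at 78.9 ± 21.9 CPM in HFD and 35.5 ± 2.52 CPM in chow (1.10, limma adjusted p 0.00192). Slc3a2 and Slc7a5, which together form the large neutral amino acid exchanger, rose by 0.63 and 0.76 (limma adjusted p 0.00691 and 0.0209). Slc7a1, which carries cationic amino acids, and Slc1a4, which carries small neutral ones, each rose by 0.61 (limma adjusted p 0.0233 and 0.0341). Apart from Slc38a1, these genes were chosen after their values were seen. Slc7a5, Slc7a1 and Slc1a4 lost their calls without HFD replicate 2 (adjusted p 0.0609, 0.0537 and 0.0656), without HFD replicate 3 (0.0816, 0.121 and 0.152) and under quantile normalization (0.237, 0.0678 and 0.0994), each of which left 3 genes higher. Slc7a1 and Slc1a4 also lost theirs without chow replicate 1 (0.0652 and 0.105), Slc7a1 without chow replicate 2 (0.0555) and Slc1a4 without HFD replicate 1 (0.051).

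The amino acid enzyme genes went both ways. Of 8 genes, 3 rose, 2 fell and 3 did not pass. Pycr1 and Aldh18a1, of proline synthesis, were higher in HFD. Pycr1 stood at 6.25 ± 1.35 CPM in HFD and 1.79 ± 0.461 CPM in chow (1.37, limma adjusted p 0.00293), and Aldh18a1, chosen after its values were seen, at 16.7 ± 1.36 CPM in HFD and 7.73 ± 2.69 CPM in chow (1.06, limma adjusted p 0.00703). Cbs, which starts the conversion of homocysteine to cysteine and was also chosen late, rose by 0.78 (limma adjusted p 0.00718). Gpt2, the mitochondrial alanine aminotransferase, and Glul, glutamine synthetase, were lower. Gpt2 fell to 420 ± 32.0 CPM in HFD, against 1134 ± 235 CPM in chow (-1.41, limma adjusted p 0.000276). Glul, also chosen after its values were seen, stood at 1047 ± 141 CPM in HFD and 1896 ± 714 CPM in chow (-0.80, limma adjusted p 0.0286), and lost its call without HFD replicate 1 (0.0818) or HFD replicate 2 (0.102), where 1 gene of the list fell, and under scaling to the median adipocyte marker gene (-0.15, 0.497). Chac1, a glutathione-degrading enzyme gene induced by ATF4 and CHOP, varied among the HFD libraries (6.23, 3.73 and 11.9 CPM, against 5.39, 5.50 and 7.26 CPM in chow) and did not pass (limma adjusted p 0.808).

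In serine and one-carbon metabolism, 1 of 8 genes beside Phgdh and Psat1 rose, 1 fell and 6 did not pass, with a median of -0.09. Psph, the enzyme that completes serine synthesis, was at 28.4 ± 3.82 CPM in HFD and 30.1 ± 3.33 CPM in chow (-0.08, limma adjusted p 0.708). The mitochondrial one-carbon genes Shmt2 and Mthfd2, both known ATF4 targets, differed by -0.03 and -0.08 (limma adjusted p 0.926 and 0.846). The gene that rose was Mthfd1l, a mitochondrial formate-producing enzyme gene, at 4.01 ± 0.882 CPM in HFD and 0.950 ± 0.0788 CPM in chow (1.35, limma adjusted p 0.00364; under quantile normalization 0.68 and 0.0521). The gene that fell was Mthfd1, the cytosolic one-carbon enzyme (-0.44, limma adjusted p 0.0393), a call lost when any of HFD replicates 1, 2 and 3 and chow replicates 2 and 3 was left out (0.0501 to 0.145) and with equal totals (-0.33, 0.148), and turned to 0.20 under scaling to the median adipocyte marker gene. Of 20 cytosolic tRNA synthetase genes, a group that ATF4 raises in many cells, 1 rose, 1 fell and 18 did not pass, with a median of 0.02. Cars rose by 0.50 (limma adjusted p 0.0136) and Aars fell by 0.54 on the log2 scale (limma adjusted p 0.00478; 0.11 under scaling to the median adipocyte marker gene). Cars lost its call without HFD replicate 3 (0.0651), where 0 genes rose; 2 fell without HFD replicate 1 or chow replicate 3, and 2 rose with equal totals or quantile normalization.

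Of 9 other genes known as ATF4 targets, 2 rose, 1 fell and 6 did not pass, with a median of 0.13. Vldlr, a lipoprotein receptor of fat, rose to 562 ± 71.8 CPM in HFD, against 233 ± 30.1 CPM in chow (1.27, limma adjusted p 0.000247), while Stc2, which encodes a secreted stress-induced glycoprotein, fell by 0.56 on the log2 scale (limma adjusted p 0.00954) and lost its call without HFD replicate 3 (0.0506); it stood at 0.07 under scaling to the median adipocyte marker gene. The other that rose, chosen after its value was seen, was Ero1l, an endoplasmic reticulum oxidase gene (0.38, limma adjusted p 0.0437), which lost its call without any 1 of HFD replicates 1, 2 and 3 and chow replicates 1 and 2 (0.0574 to 0.18). Herpud1, a gene of endoplasmic reticulum-associated degradation, was at 64.8 ± 3.71 CPM in HFD and 60.03 ± 14.0 CPM in chow and did not pass (limma adjusted p 0.571). Gdf15, Fgf21, Slc7a11 and Cebpb, which belong to the same programme, were not analysed here.

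**Figure D4:**
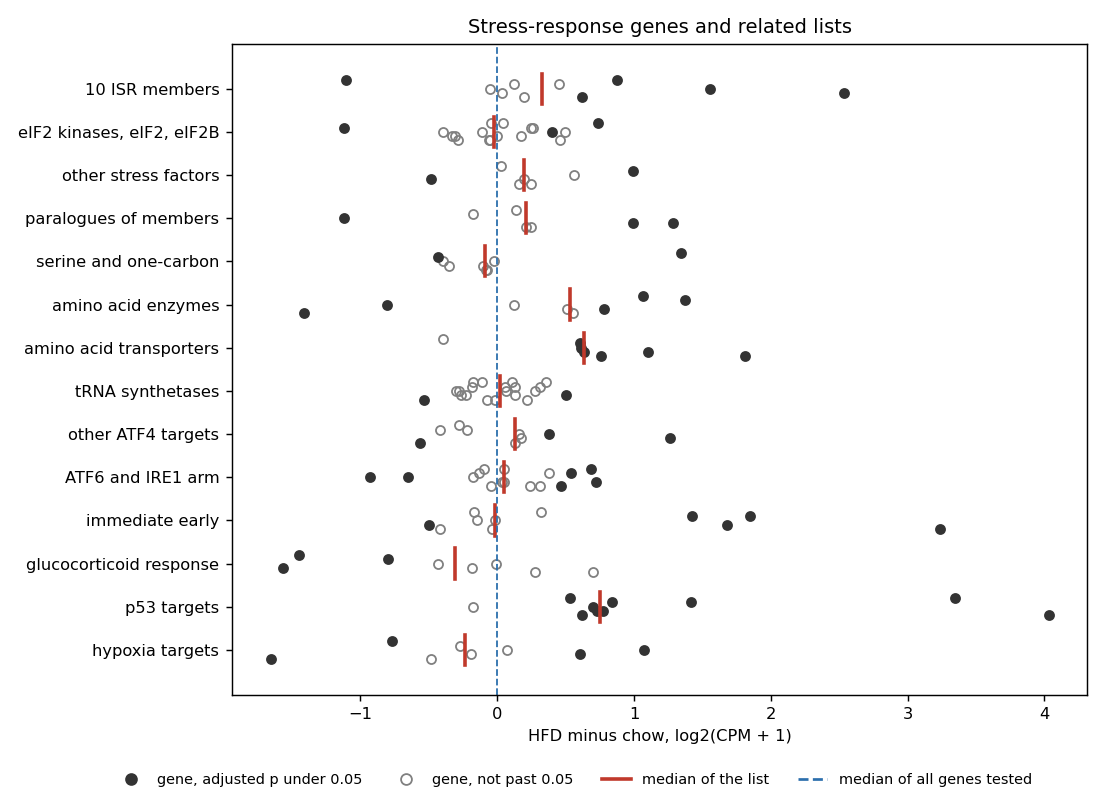
Difference between HFD and chow on the log2(CPM + 1) scale (x axis) for the 10 members and the related gene lists (rows); filled points passed an adjusted p of 0.05, open points did not, the red bar is the median of the list and the dashed line the median of all genes tested. The transporters (6 of 7 higher) and the p53 targets (9 of 10 higher) lie mostly to the right, and the tRNA synthetases (18 of 20 not past the threshold) lie close to the dashed line.

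Ddit3, Atf3, Ppp1r15a and Ddit4 are also known to answer to other signals, so lists of those signals are given beside them. In the ATF6 and IRE1 arms of the unfolded protein response, 4 of 16 genes rose and 2 fell, with a median of 0.05. Sdf2l1, a chaperone cofactor gene, was higher at 20.8 ± 2.14 CPM in HFD and 12.3 ± 1.67 CPM in chow (0.72, limma adjusted p 0.00954), and Xbp1, which encodes the factor activated by IRE1, was lower at 155 ± 1.24 CPM in HFD and 301 ± 60.5 CPM in chow (-0.93, limma adjusted p 0.00204; under scaling to the median adipocyte marker gene -0.28 and 0.227). Hspa5, the gene of the chaperone BiP, rose by 0.54 (limma adjusted p 0.0228), a call lost without HFD replicate 2 (0.0641), HFD replicate 3 (0.103) or chow replicate 1 (0.0781). The co-chaperone genes Dnajb9 (0.68, limma adjusted p 0.0264) and Dnajb11 (0.47, limma adjusted p 0.0348) also rose and the disulfide isomerase gene Pdia4 fell (-0.65, limma adjusted p 0.00448), all 3 chosen after their values were seen. Without HFD replicate 2, HFD replicate 3 or chow replicate 1, 1 gene of the list rose, and without chow replicate 2 it was 2, since Dnajb9 and Dnajb11 lost their calls in each of these cases (0.0504 to 0.155). Pdia4 lost its call under scaling to the median adipocyte marker gene (0.983).

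Of 11 immediate early genes, which respond within minutes to growth factors, stress or tissue handling, 4 rose, 1 fell and 6 did not pass. Fos, the AP-1 subunit gene, stood at 17.3 to 30.1 CPM in HFD and at 0.959 to 1.62 CPM in chow (3.23, limma adjusted p 3.49e-05). Egr1, Dusp1 and Btg2, chosen after their values were seen, rose by 1.85, 1.68 and 1.42 (limma adjusted p 0.00408, 0.0012 and 0.00016). Jun, the partner of Fos, fell (-0.50, limma adjusted p 0.024), a call lost without any 1 of HFD replicates 1, 2 and 3 and chow replicates 1 and 2 (0.0505 to 0.0836) and with equal totals (0.119), and turned to 0.14 under scaling to the median adipocyte marker gene. The part of whatever raised Fos and Egr1 in the higher Atf3 was not tested. Of 10 p53 targets on the list used here, 9 rose and 0 fell, and genes placed in other lists were not counted. Cdkn1a, a cell-cycle inhibitor gene, was at 151 ± 16.1 CPM in HFD and 8.28 ± 0.885 CPM in chow (4.03, limma adjusted p 1.04e-06). Sesn1 was the gene of this p53 list that did not pass. Without HFD replicate 1, HFD replicate 2 or chow replicate 1, 7 p53 targets rose, and without chow replicate 2 it was 8. Of 8 glucocorticoid-responsive genes, a group that Ddit4 is known to follow, 0 rose and 3 fell, with Fkbp5 at 64.8 ± 28.2 CPM in HFD and 187 ± 44.9 CPM in chow (-1.57, limma adjusted p 0.00267). The other 2 that fell, chosen after their values were seen, were the transcription factor genes Zbtb16 (-1.45, limma adjusted p 0.0067) and Klf9 (-0.80, limma adjusted p 0.00457), the last of which lost its call under scaling to the median adipocyte marker gene (0.57). With equal totals, under quantile normalization, or without HFD replicate 2, chow replicate 1 or chow replicate 3, 1 gene of this list rose. Under scaling to the median adipocyte marker gene 2 rose and 2 fell. Of 8 hypoxia targets, another such group, 2 rose and 2 fell. Ndrg1 at -1.65 (limma adjusted p 0.000122) and the mitophagy gene Bnip3 at -0.77 (limma adjusted p 0.00668) fell, and the peptide hormone gene Adm at 1.08 (limma adjusted p 0.0184) and the collagen hydroxylase gene P4ha1 at 0.60 (limma adjusted p 0.0116) rose. Adm lost its call without HFD replicate 2 (0.0748) or chow replicate 2 (0.0649) and under quantile normalization (0.38, 0.347), P4ha1 without HFD replicate 3 (0.056), and Bnip3 under scaling to the median adipocyte marker gene (0.588). Bnip3 and P4ha1 were chosen after their values were seen.

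Markers of other cell types moved with the diet beside the members. Of 12 macrophage markers 11 were higher and 1 (Cd14) lower in HFD, with a summed level of 269 to 413 CPM in HFD and 68.4 to 92.6 CPM in chow. Of 10 endothelial markers 9 were higher (157 to 302 CPM in HFD, 32.5 to 84.4 CPM in chow), and of 7 smooth muscle and pericyte markers 6 were (1479 to 1887 CPM in HFD, 1052 to 1182 CPM in chow). The largest part of this last sum is Mcam, the 1 that did not pass, at 843 to 936 CPM in HFD and 955 to 1075 CPM in chow. Fibroblast and progenitor markers overlapped (1631 to 3611 CPM in HFD, 2128 to 2909 CPM in chow), with 3 of 10 higher and 1 lower, and 2 of 7 mesothelial markers were higher (41.8 to 137 CPM in HFD, 19.2 to 30.8 CPM in chow). No marker of macrophages, endothelium, smooth muscle or fibroblasts was at the lowest value of the table in any library, whereas Krt8 of the mesothelial list was in at least 1. Of 6 neutrophil and mast cell genes 4 were listed (16.4 to 31.0 CPM summed in HFD, 2.59 to 5.85 CPM in chow), among which S100a8 and Mcpt4 were at the lowest value in at least 1 library. S100a8 and Kit were higher in HFD. The mast cell genes Cpa3 (mean 0.297 CPM in HFD, 0.595 CPM in chow) and Mcpt4 (0.0256 and 0.146 CPM) had lower means in HFD. Both were under the filter and not tested. Epididymis markers were not analysed here, and lymphocyte markers are not reported. More such cells and more of their untagged mRNA carried along in the pull-down cannot be told apart. The part of these cells, or of mRNA carried along, in the rise of Atf3, Ddit3, Ddit4 and Atf4 was not tested. Asns fell while these marker sums, other than those of fibroblasts and adipocytes, were higher. The part of these cells, or of mRNA carried along, in its fall was not tested.

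**Figure D5:**
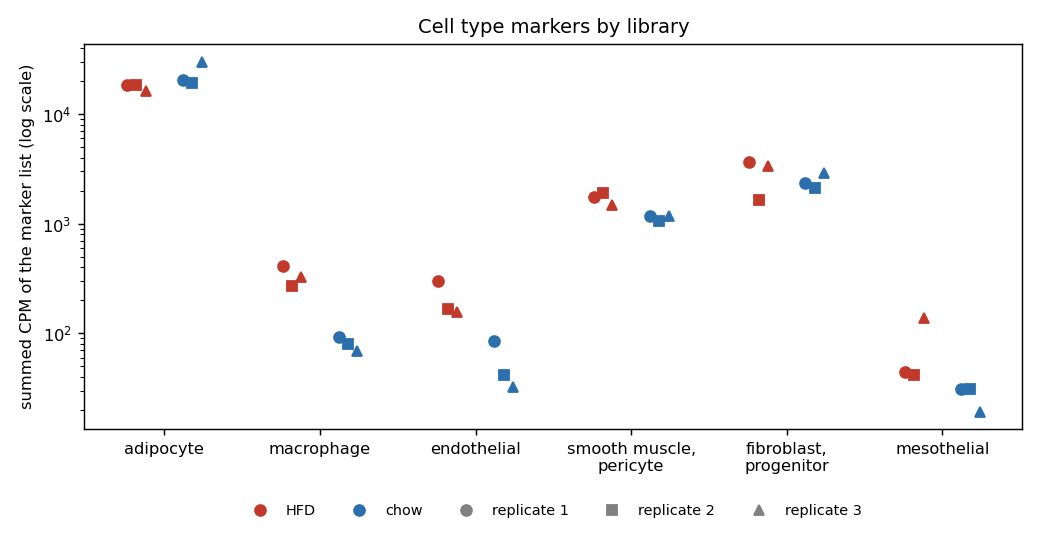
Summed CPM of each marker list (y axis, log scale) in the HFD libraries (red) and the chow libraries (blue), with the replicate shown by the symbol. Macrophage, endothelial, smooth muscle and mesothelial sums are higher in every HFD library than in any chow library, the adipocyte sum is lower, and the fibroblast sums overlap.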

How the data were processed

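The deposited values are log2 CPM per gene, rounded to 2 decimals, as the authors provided them. Tools listed in the submitters' processing notes include HISAT2, Picard, featureCounts and edgeR, with the build mm10; neither their versions nor their roles are stated. Values were turned back into CPM as powers of 2. The lowest value of the table, -6.85, corresponds to 0.00867 CPM. Reads were recovered from the steps between values under 20 reads, all of which came out whole within 0.1 of a read. HFD and chow were compared on log2(CPM + 1) by limma 3.58.1 (R 4.3.3, two-sided, moderated with a trend) for 11643 genes averaging 1 CPM or more, adjusted by Benjamini-Hochberg over all of them, threshold 0.05. The code was tested on simulated data. The number of unmapped value columns was 0.

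The members and gene lists were chosen with earlier results of these data known. The text names all members, a fixed set of genes, and for each list the called gene with the highest and that with the lowest change (47 genes, 43 of them in the table), plus 23 chosen after seeing the values: those said so where named, and Sesn1, Mars, Mbd6. Counting error alone is covered by read numbers. Alternatives were another pseudocount, the deposited log2 values, other filters, 3 other scalings, voom weights, a replicate block and leaving out each library.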

Additional observations from a re-analysis of the deposited data

How the results depend on the processing

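Atf3, Ddit3 and Asns kept their direction under all 15 alternatives, with log2 fold changes of 2.03 to 3.67, 1.33 to 2.16 and -1.22 to -0.47, and their calls except that of Asns under scaling to the median adipocyte marker gene. Leaving out 1 library in turn, 2 to 4 members and 1688 to 2101 genes in all were higher, and 1 member and 1162 to 1740 genes were lower; 2 members higher and 1162 genes lower came without HFD replicate 3. Scaling to the median adipocyte marker gene gave 8 members higher and 0 lower, and 6100 genes higher and 278 lower, while the median of all genes moved to 0.61; relative to that median Asns stood at -1.07 and Atf4 at 0.65. Under it, 11 of 18 eIF2 control genes, 12 of 20 tRNA synthetase genes, 13 of 16 genes of the ATF6 and IRE1 arms and 6 of 7 stress factor genes were higher. With equal totals the median of all genes was 0.10, with 2513 genes higher and 1333 lower; under quantile normalization 1984 were higher and 2295 lower.

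Signs turned for these genes. Under scaling to the median adipocyte marker gene, Sesn2 (0.58), Eif2ak1 (0.58), Psph (0.54), Shmt2 (0.58), Mthfd2 (0.53), Mthfd1 (0.20), Jun (0.14), Cebpg (0.16), Aars (0.11), Stc2 (0.073), Sesn1 (0.46), Mars (0.37), Mbd6 (0.11) and Slc1a5 (0.25) were above 0. With equal totals Sesn2 (0.053), Eif2ak1 (0.057), Psph (0.024), Shmt2 (0.078) and Mthfd2 (0.026) were. Quantile normalization turned Trib3 (-0.17) and Chac1 (-0.19), and voom weights Shmt2 (0.029). Leaving out 1 library in turn gave ranges that crossed 0 for Phgdh (-0.11 to 0.29), Sesn2 (-0.21 to 0.059), Eif2ak1 (-0.13 to 0.0016), Eif2ak2 (-0.019 to 0.46), Chac1 (-0.26 to 0.46), Mthfd2 (-0.23 to 0.20) and Shmt2 (-0.16 to 0.088). The cause was not tested.

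The labels do not pair the replicate numbers, so the main fit took no pairs. Across genes, deviations from the group means correlated between same-numbered libraries at 0.43, 0.23 and 0.09 for replicates 1, 2 and 3. Each HFD library correlated best with the chow library of its own number. Chow replicate 3 instead correlated best with HFD replicate 2 (0.15). Whether same-numbered libraries share a batch was not tested. A fit with the replicate number as a block gave 4 members higher and 1 lower, and 2594 genes higher and 2245 lower; it also called Mbd6 lower (-0.51, limma adjusted p 0.0292). Depth limits Atf3 most, with about 3 reads in chow replicate 3.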
